A study of Mus musculus with 6 samples.

Results

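AP-1 and immediate early transcription factors were read from the expression table of 6 tumours grown from STS26T, a human malignant peripheral nerve sheath tumour (MPNST) line. The set was fixed by name and holds the 4 Fos family genes FOS, FOSB, FOSL1 and FOSL2, the 3 Jun family genes JUN, JUNB and JUND, and ATF3, EGR1 and IER2. All 10 symbols were found once each among the 23284 gene symbols listed. The tumours grew under the skin of athymic nude mice, a host without a thymus, and were treated once palpable. In 3 tumours the treatment was TRC105 plus M1043, antibodies against human and mouse endoglin (ENG), a co-receptor of the TGF-beta family, here called the anti-ENG arm. In the other 3 it was an IgG isotype control. Antibody was injected into the peritoneum at 10 mg/kg in both arms, 2 times weekly over 3 weeks. All 6 tumours derive from 1 cell line. IgG control 2 and 3 share a code number in the labels, as do anti-ENG 1 and 2, and whether a shared number means 1 animal is not stated. The p-values therefore measure the spread between these tumours only.

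AP-1 is a dimer of basic leucine zipper proteins. A Jun protein can pair with itself, with another Jun protein or with a Fos protein, whereas Fos proteins need a Jun partner to bind DNA. Immediate early genes such as FOS, EGR1 and IER2 are transcribed within minutes of a growth factor or stress signal without new protein synthesis, and their transcripts are short-lived, while FOSL1 and FOSL2 are switched on later and last longer under sustained ERK signalling. In tumours driven by RAS-pathway signalling, FOSL1 is known as a stable component of AP-1.

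Levels are given as FPKM, fragments per kilobase of transcript and scaled to the mapped fragments of the library, which allows genes of different length to be set beside each other. FPKM values are not counts and total depth is unknown. The summed FPKM of all genes was 410786 to 443148 in the IgG tumours and 446100 to 475146 in the anti-ENG tumours, so the arms did not overlap in it. From the value of 1 fragment in low genes, the libraries differed in relative depth by up to 1.51 times, with anti-ENG 1 the deepest and IgG control 1 the shallowest. The Schwann lineage markers SOX10 and S100B were at or near 0 (at most 0.188 FPKM in any tumour), NGFR was between 0.0474 and 2.34 FPKM, and SOX9 and TWIST1 were between 19.1 and 34.6 FPKM. These 2 defining Schwann markers were thus nearly absent. Markers of endothelium summed to between 2.44 and 4.76 FPKM in all tumours, and the T cell marker CD3E was at 0 in all 6. Leukocyte markers summed to 63.7 to 122 FPKM under IgG and 75.4 to 102 under anti-ENG, nearly all of it CD68, with the pan-leukocyte marker PTPRC between 0.184 and 1.13 FPKM. Values are of human symbols, so RNA from mouse cells counts only if it could be aligned to human sequence.

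In these tumours FOSL1 made up most of the Fos family, and the Jun family was divided among its 3 members. FOSL1 had the highest mean of the 10 genes over the 6 tumours, 164 FPKM, above 97.1% of genes tested. It was followed by JUN at 73.9, JUND at 60.5, JUNB at 51.4, IER2 at 46.0, FOSL2 at 20.9, EGR1 at 11.8, ATF3 at 3.36, FOS at 1.62 and FOSB at 0.394 FPKM. FOSL1 was above JUN in 6 of 6 tumours with no overlap of their ranges. JUN, JUND, JUNB and IER2 overlapped each with the next in this order, and JUNB was above IER2 in only 3 of 6 tumours. FOSL2 and EGR1 also overlapped, as did ATF3 and FOS, although ATF3 was above FOS in 6 of 6. FOS, which gave the family its name, was thus among the least abundant of its genes. In bulk tumour RNA, fewer expressing cells and less RNA per cell cannot be told apart.

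**Figure D1:**
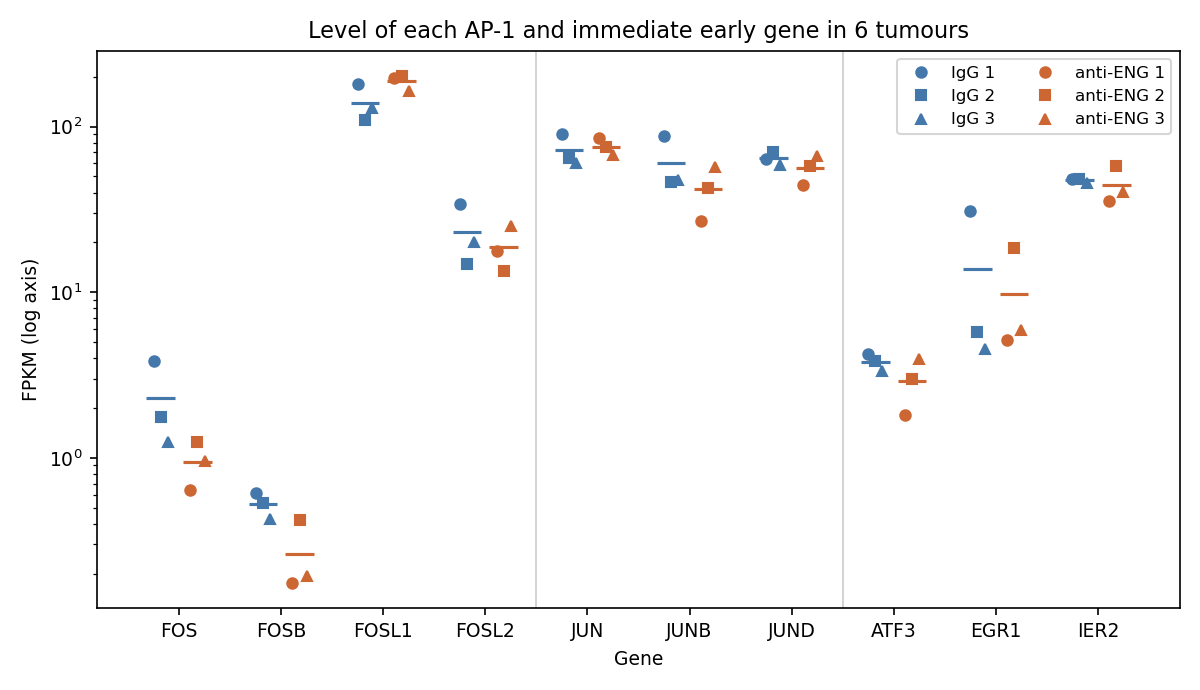
FPKM on a log axis for each gene, with 1 symbol per tumour (blue IgG control, orange anti-ENG; circle, square and triangle for tumours 1, 2 and 3) and a bar at each arm's mean. FOSL1 sits highest and FOSB lowest; FOSB is the 1 gene whose arms do not overlap.

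No member passed the test between the arms. The comparison asks what blocking endoglin does to the RNA of these tumours. By limma on log2(FPKM + 1), with Benjamini-Hochberg adjustment over the 12586 genes whose mean reached 1 FPKM, 0 of the 9 members tested passed an adjusted p of 0.05, as did 0% of all genes tested. FOSB was under that minimum and was not tested. At an unadjusted p under 0.05 there were also 0 of 9 members, against 9.17% of all genes tested. FOS and FOSL1 were just above that cut (limma unadjusted p = 0.0553 and 0.0559). The member count was 1 with the same sum of FPKM (1256 of all genes), 2 without anti-ENG 3 (1464) and 0 with quantile normalization (961). The estimate was below 0 for 7 of the 9 and above 0 for 2, FOSL1 and JUN, with a median log2 fold change of -0.21. Over all genes tested 48.8% were below 0 and the median was 0.0065.

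Among the Fos family, FOS encodes the prototype partner of Jun. In the order of tumour 1, 2 and 3, used throughout, its FPKM values were 3.84, 1.77 and 1.25 in the IgG arm and 0.638, 1.25 and 0.961 in the anti-ENG arm. IgG control 1 was more than 2 times any other tumour, and the arms overlapped by the narrowest of margins, 1.2486 FPKM in IgG control 3 under 1.2498 in anti-ENG 2. The arm means were 2.29 ± 1.37 and 0.950 ± 0.306 FPKM (SD, n = 3 each), for IgG and anti-ENG in turn. The resulting difference was -0.69 on the log2 scale (SE 0.30, limma adjusted p = 0.529). It was -0.37 without IgG control 1.

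FOSB, a close relative of FOS that is also induced rapidly, was the least abundant member. It had 0.613, 0.532 and 0.428 FPKM under IgG and 0.177, 0.420 and 0.192 FPKM under anti-ENG. All 3 anti-ENG tumours were below all 3 IgG tumours, though anti-ENG 2 by 0.42 against 0.428 only. This was the 1 member of 10 whose arms did not overlap, against 17.3% of genes tested and 14.1% of the 18915 genes above 0 in at least 1 tumour (6.37% with anti-ENG lower). With no filter on low values its log2 fold change was -0.27 (SE 0.095, limma adjusted p = 0.633). At such levels few fragments stand behind each value, and their number is not known.

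FOSL1, which encodes FRA-1, a Fos protein without a strong transactivation domain of its own, went the other way from FOS. It had 181, 110 and 129 FPKM under IgG and 196, 202 and 165 FPKM under anti-ENG. The 2 lowest anti-ENG tumours stood on either side of IgG control 1, so the arms overlapped through that 1 tumour. The means were 140 ± 36.9 and 187 ± 20.1 FPKM (SD, n = 3 each), and the log2 fold change was 0.45 (95% interval -0.014 to 0.91, limma adjusted p = 0.529). The estimate was above 0 with each tumour left out in turn, from 0.29 to 0.65. It was 0.33 with the same sum of FPKM in each tumour, 0.31 with quantile normalization and 0.27 after cyclic loess.

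FOSL2 encodes FRA-2, the other late Fos protein. It had 34.0, 14.8 and 20.0 FPKM under IgG and 17.7, 13.4 and 25.1 FPKM under anti-ENG. The tumours of both arms were interleaved, with IgG control 1 highest. The difference was -0.24 on the log2 scale (SE 0.32, limma adjusted p = 0.785) and 0.073 without IgG control 1.

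In the Jun family, JUN encodes the strongest activator of the 3. It had 90.8, 64.5 and 60.7 FPKM under IgG and 84.8, 75.3 and 67.4 FPKM under anti-ENG. All anti-ENG tumours lay between IgG control 1 and the other 2 IgG tumours. Its log2 fold change was 0.090 (SE 0.18, limma adjusted p = 0.854), and the sign turned with 3 other scalings, to -0.029 with the same sum of FPKM in each tumour, -0.0054 with quantile normalization and -0.034 after cyclic loess. Its 95% interval ran from -0.32 to 0.50.

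JUNB, a weaker activator that can restrain JUN and that responds quickly to cytokines and TGF-beta, varied more than JUN. It had 88.1, 46.2 and 47.7 FPKM under IgG and 26.9, 42.4 and 57.4 FPKM under anti-ENG. IgG control 1 was highest and anti-ENG 1 lowest, while the 4 tumours between them overlapped. The means were 60.7 ± 23.7 and 42.2 ± 15.3 FPKM (SD, n = 3 each), a difference of -0.51 on the log2 scale (SE 0.33, limma adjusted p = 0.593). Leaving out IgG control 1 gave -0.21, leaving out anti-ENG 1 gave -0.23, and leaving out the pair gave 0.070.

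JUND, the Jun gene that is held at a steady level in resting cells, had 64.1, 70.7 and 59.0 FPKM under IgG and 44.6, 57.7 and 66.7 FPKM under anti-ENG. Anti-ENG 1 was lowest and the other tumours overlapped. It had the smallest spread within arms of the 10 genes after FOSB, a residual SD of 0.22 on the log2 scale. The added 1 compresses this scale for FOSB, whose FPKM values ranged 2.38-fold in the anti-ENG arm. JUND had a log2 fold change of -0.21 (limma adjusted p = 0.651, SE 0.16), and -0.054 without anti-ENG 1.

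ATF3, a stress-induced leucine zipper protein that can dimerize with Jun proteins and often represses, had 4.22, 3.85 and 3.34 FPKM under IgG and 1.83, 2.98 and 3.96 FPKM under anti-ENG. Only anti-ENG 3 lay within the IgG range. For ATF3 the log2 fold change was -0.33 (SE 0.22, limma adjusted p = 0.603), and -0.11 without anti-ENG 1.

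EGR1, a zinc finger factor outside the AP-1 family and a classical readout of ERK and serum response factor activity, had the widest spread. It had 30.9, 5.77 and 4.57 FPKM under IgG and 5.12, 18.4 and 5.95 FPKM under anti-ENG. IgG control 1 and anti-ENG 2 were high and the other 4 tumours were within 4.57 to 5.95 FPKM. The residual SD within arms was 1.17 on the log2 scale, above that of 99.5% of genes tested. The log2 fold change was -0.18 (95% interval -1.84 to 1.48, limma adjusted p = 0.935), an interval too wide to show whether the arms differ. Leaving out IgG control 1 gave 0.61, and leaving out anti-ENG 2 gave -0.71.

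IER2, a small nuclear protein of the immediate early response, was almost level in the IgG arm, with 48.2, 48.1 and 45.9 FPKM. It had 35.3, 58.0 and 40.5 FPKM under anti-ENG. The anti-ENG tumours thus lay on both sides of the IgG tumours, which spanned a 1.05-fold range against 1.64-fold in the anti-ENG arm. The log2 fold change was -0.12 (SE 0.18, limma adjusted p = 0.816).

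**Figure D2:**
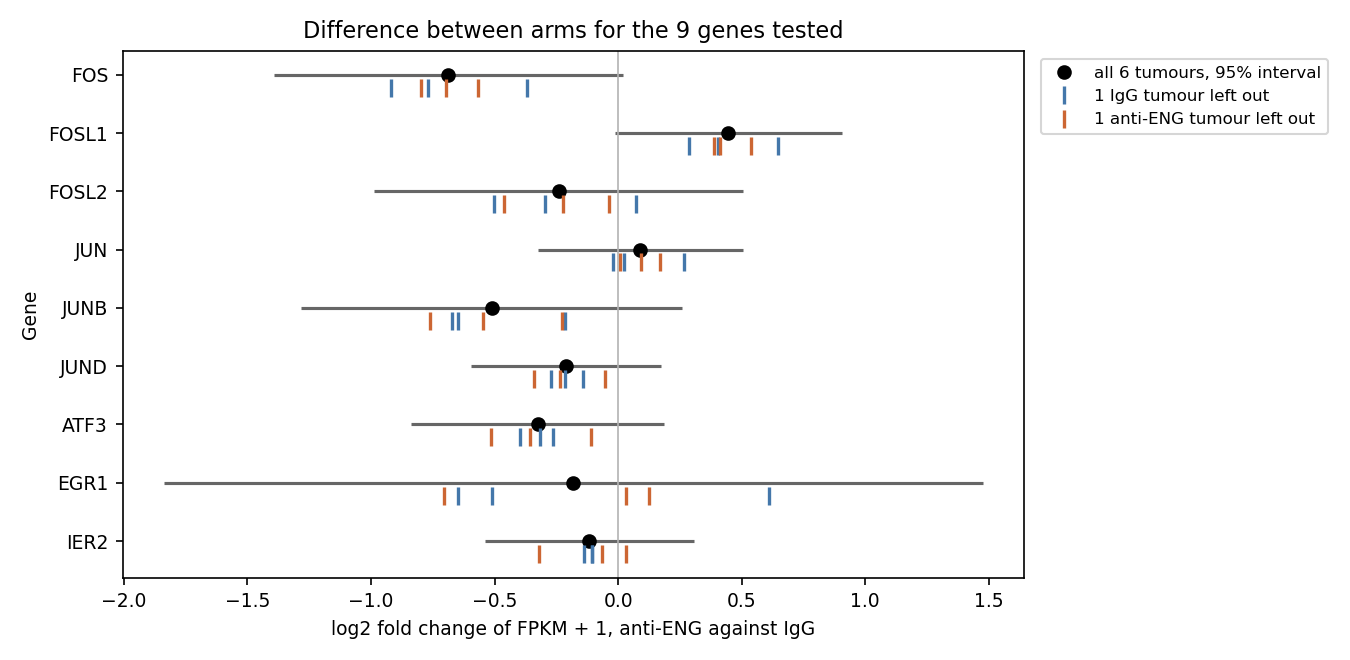
Log2 fold change of FPKM + 1, anti-ENG against IgG, for the 9 genes tested (black point, 95% limma interval as a line), with the estimate after leaving out each tumour as ticks (blue IgG, orange anti-ENG). Every interval includes 0; the ticks of FOSL2, JUN, EGR1 and IER2 fall on both sides of 0.

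The balance among members was then compared in RNA, since which Fos and Jun proteins are present sets which dimers can form. Proteins and dimers were not measured here. FOSL1 made up 82.5, 86.5 and 85.6% of the summed Fos family FPKM in the IgG tumours, and 91.3, 93.0 and 86.2% in the anti-ENG tumours. Anti-ENG 3 lay just under IgG control 2, so the arms overlapped by that pair. The mean shares were 84.8 ± 2.11% and 90.2 ± 3.54% (SD, n = 3 each; exact two-sided permutation p = 0.2, adjusted to 0.333 over the 5 balance measures). With 3 tumours against 3 the smallest such p is 0.1.

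FOS was 1.75, 1.40 and 0.830% of the Fos family under IgG and 0.298, 0.576 and 0.503% under anti-ENG. These ranges did not overlap (exact two-sided permutation p = 0.1, the smallest possible, adjusted 0.25). Among single genes tested, the FPKM ranges of the arms did not overlap for 17.3%. The mean shares were 1.32 ± 0.463% and 0.459 ± 0.144% (SD, n = 3 each). Under both treatments FOS and FOSB together stayed a minor part beside FOSL2, which took 11.7 to 15.5% under IgG and 6.19 to 13.2% under anti-ENG.

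The Jun family was split more evenly. JUN made up 37.4, 35.6 and 36.2% of the summed Jun family FPKM under IgG and 54.3, 42.9 and 35.2% under anti-ENG. The IgG tumours were within 2 percentage points of each other, and the anti-ENG tumours ranged from just under them to well above (exact permutation p = 0.4, adjusted 0.4). JUNB was 36.2, 25.5 and 28.5% under IgG and 17.2, 24.2 and 30.0% under anti-ENG. These overlapped (exact permutation p = 0.4, adjusted 0.4), and the difference was 0.086 percentage points once IgG control 1 and anti-ENG 1 were left out together.

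The ratio of summed Fos to summed Jun family FPKM was 0.903, 0.699 and 0.899 in the IgG tumours and 1.37, 1.24 and 0.996 in the anti-ENG tumours. Jun transcripts were in excess in all 3 IgG tumours and Fos transcripts in 2 of the 3 anti-ENG tumours, with the third near parity. The arms did not overlap, as was so for the FPKM of 17.3% of single genes tested. The mean ratios were 0.834 ± 0.117 and 1.20 ± 0.190 (SD, n = 3 each; exact two-sided permutation p = 0.1, the smallest possible, adjusted 0.25). The balance measures have terms in common, with FOSL1 most of the Fos sum, so they are not separate results. As a ratio within a tumour, Fos to Jun does not depend on how a library is scaled as a whole. With 1 tumour left out the difference ran from 0.28 to 0.47, and it was 0.32 with IgG control 1 and anti-ENG 1 both left out. The summed Fos family alone overlapped, at 127 to 219 FPKM under IgG and 191 to 217 under anti-ENG, as did the summed Jun family at 167 to 243 and 156 to 192 FPKM.

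**Figure D3:**
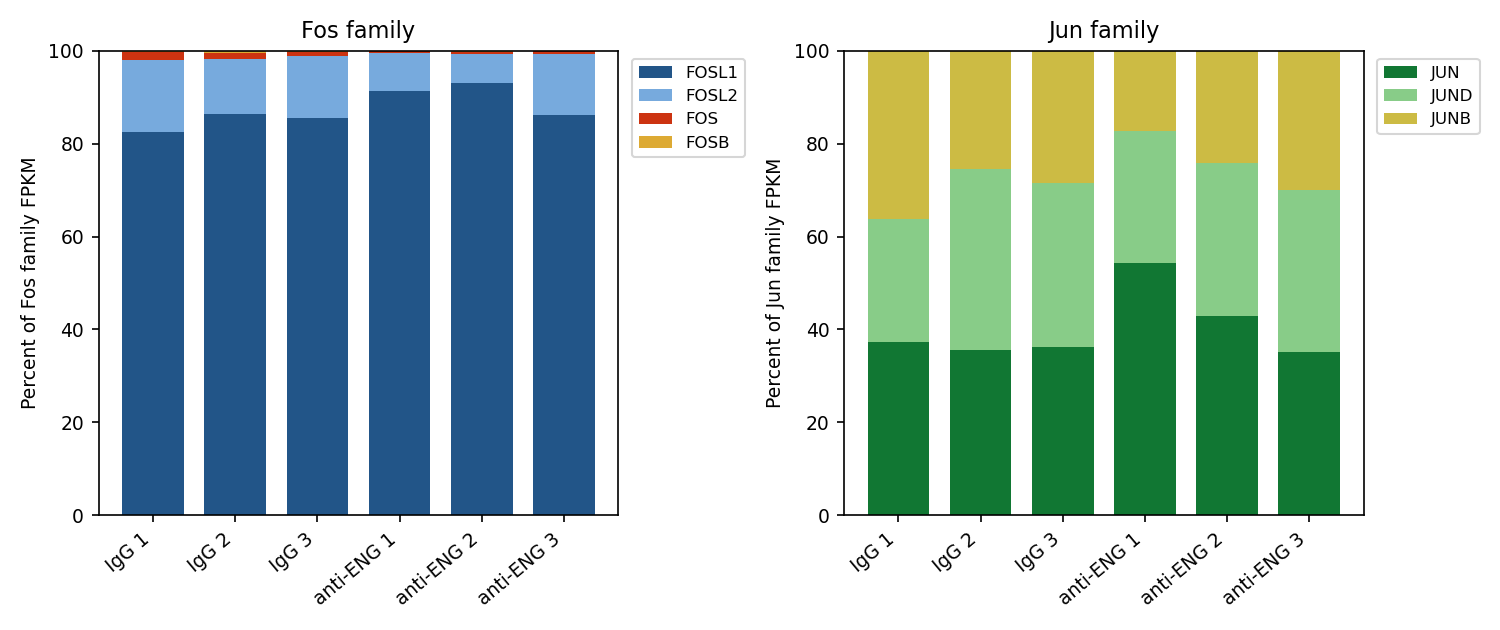
Share of each gene in the summed FPKM of the Fos family (left) and the Jun family (right), 1 bar per tumour, in percent. FOSL1 fills 82.5 to 93.0% of the Fos family bars, and JUN ranges from 35.2 to 54.3% of the Jun family bars.

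Single tumours stood out across the members. IgG control 1 held the highest value of 7 of the 10 members, against 21.4% of all genes tested, and anti-ENG 1 the lowest of 6, against 25.4%. Within the IgG arm, IgG control 1 was highest for 9 of 10 members, all but JUND, against 39.1% of genes tested. FOS, FOSB, FOSL1, EGR1 and IER2 were highest in anti-ENG 2, FOSL2, JUNB, JUND and ATF3 in anti-ENG 3, and JUN in anti-ENG 1. Over all genes tested, 30.4% were highest of that arm in anti-ENG 2, 30.1% in anti-ENG 3 and 39.4% in anti-ENG 1. Fibroblast markers varied alongside: their sum was 673 to 1314 FPKM under IgG and 290 to 793 under anti-ENG, with 0 of 5 higher under anti-ENG in the estimate, and their part in these results was not tested.

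**Figure D4:**
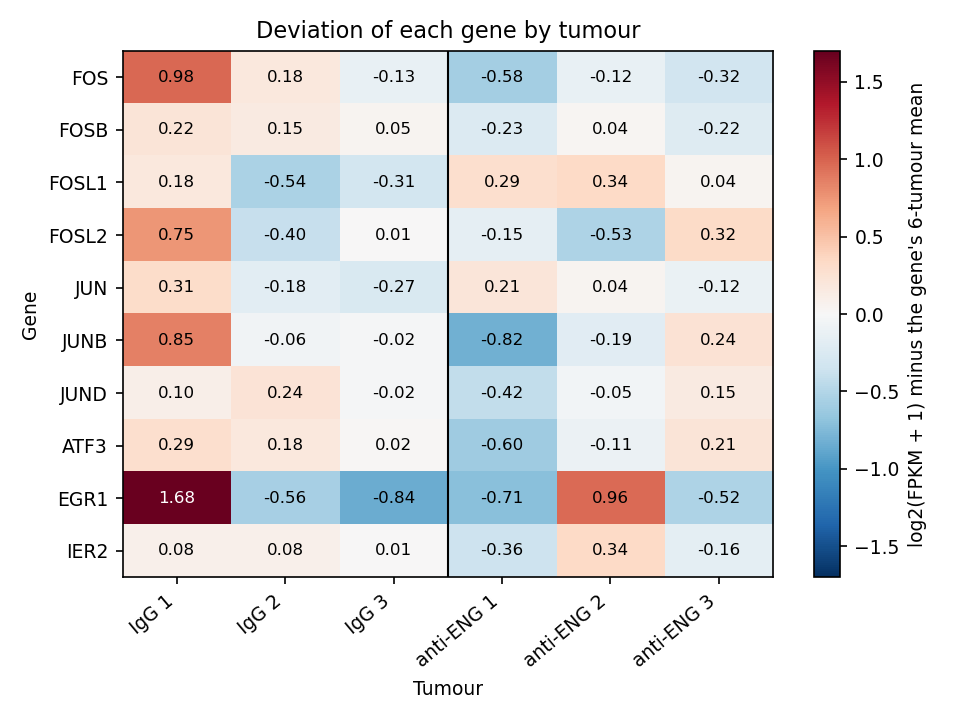
Deviation of each gene (rows) in each tumour (columns) from its mean over the 6 tumours, as log2(FPKM + 1), with red above and blue below that mean. IgG control 1 is above the mean for all 10 genes, and EGR1 reaches 1.68 there and 0.96 in anti-ENG 2.

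Genes whose profile over the 6 tumours lay nearest to a member were found by the mean absolute difference of centred log2(FPKM + 1), as a description with no test. For FOS, which deviated from its own mean by 0.39 on average, they were TMEM2 at 0.067, TCEA3 at 0.072 and ASAP3 at 0.074. Adding 1 compresses low values such as those of FOS, which ranged 6.01-fold in FPKM, so its nearest genes can range less widely. TMEM2, a cell surface protein, had 21.2, 12.6 and 11.3 FPKM under IgG and 7.65, 9.98 and 8.90 FPKM under anti-ENG, the same order as FOS for the highest and the lowest tumour. For FOSL1 they were the prolyl hydroxylase genes EGLN3 at 0.072 and LEPREL1 at 0.073, and NCEH1 at 0.095. For JUN they included SH3KBP1 at 0.022 and FRMD6 at 0.041. For EGR1 they were the metallothionein genes MT1M at 0.32 and MT2A at 0.38 and the cadherin gene CDH11 at 0.34. MT1M had 42.2 and 44.4 FPKM in IgG control 1 and anti-ENG 2 and between 15.8 and 18.8 in the other 4 tumours, the same split as EGR1.

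The rest of the pathway was read from lists chosen by function, in which 0 genes passed the adjusted threshold. Other leucine zipper partners of AP-1 (the MAF, BATF and ATF relatives) had estimates below 0 in 10 of 10 genes tested (median -0.18 on the log2 scale), against 48.8% of all genes below 0. MAFG, a small Maf protein without a transactivation domain, had 24.7, 16.2 and 20.3 FPKM under IgG and 11.3, 14.8 and 21.8 under anti-ENG. MAFK, another small Maf gene, had a log2 fold change of -0.41. The arms did not overlap for 1 of the 10, MAF, named here after its values were seen, against 17.3% of all genes tested. Without IgG control 1 the split was 3 above 0 and 7 below.

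Other immediate early genes went both ways, 8 above 0 and 13 below of 21 tested (median -0.056). KLF2, a Krüppel-like factor, had 7.46, 8.41 and 6.27 FPKM under IgG and 12.6, 9.99 and 13.8 under anti-ENG, with the arms apart (log2 fold change 0.64, limma adjusted p = 0.529). TIPARP, an ADP-ribosyltransferase induced by the aryl hydrocarbon receptor, had 14.9, 15.2 and 11.3 FPKM under IgG and 9.71, 9.54 and 8.55 under anti-ENG, also apart (log2 fold change -0.52, limma adjusted p = 0.529). GADD45A, a DNA damage response gene, was at 0.19. KLF2 and TIPARP were the 2 genes of the 21 whose arms did not overlap, against 17.3% of all genes tested. Without IgG control 1 the median was 0.10, with 14 above 0 and 7 below, and with any other tumour left out it was between -0.22 and -0.0051.

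Feedback genes of the immediate early response, among them genes that destabilize its transcripts or dephosphorylate ERK, had 10 of 13 estimates below 0 (median -0.19). ZFP36, which binds AU-rich elements and hastens the decay of FOS-type transcripts, had 9.63, 6.39 and 5.62 FPKM under IgG and 3.02, 4.58 and 5.29 FPKM under anti-ENG. Its log2 fold change was -0.63 (SE 0.23, limma adjusted p = 0.529). ZFP36 was the 1 gene of the 13 whose arms did not overlap, against 17.3% of all genes tested. The ERK phosphatase gene DUSP4 had a log2 fold change of -0.32, and SPRY4, an inhibitor of receptor signalling, had -0.51. The median was -0.088 without IgG control 1, -0.37 without IgG control 3 and -0.31 without anti-ENG 2. With IgG control 1 and anti-ENG 1 both left out the list was split 7 above 0 and 6 below.

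Upstream of the members, the transcription factors that act on their promoters had 7 of 9 estimates below 0 (median -0.092). That median was -0.032 without IgG control 1, -0.034 without IgG control 3 (5 of 9 below 0), -0.031 without anti-ENG 1 and -0.022 without anti-ENG 2. MEF2D, a factor that acts on the JUN promoter, had 10.0, 8.66 and 8.05 FPKM under IgG and 4.92, 7.07 and 8.17 under anti-ENG, with only anti-ENG 3 inside the IgG range (log2 fold change -0.38). ELK1, an ERK substrate that binds beside serum response factor, was at 0.17 and MEF2A at -0.11. Of 16 MAP kinase pathway genes tested, 8 were below 0 and 8 above (median -0.022, or 12 below and -0.14 with the same sum of FPKM), with the p38 gene MAPK11 at -0.61, the JNK gene MAPK9 at 0.24 and the ribosomal S6 kinase gene RPS6KA2 at 0.57.

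Downstream, AP-1 target genes spread widely by tumour. The cytokine gene LIF had 119, 20.7 and 37.8 FPKM under IgG and 15.0, 24.2 and 53.9 under anti-ENG, and the collagenase gene MMP1 had 340, 90.2 and 82.8 and then 56.3, 37.6 and 217 FPKM. IgG control 1 and anti-ENG 3 were the high tumours in both genes, as they were for JUNB, FOSL2 and ATF3 but not for the other members. For FOSL1 and JUN, the most abundant Fos and Jun genes, anti-ENG 3 was the lowest anti-ENG tumour, at 165 and 67.4 FPKM. Of 14 targets tested, IgG control 1 was the highest IgG tumour in 13, against 39.1% of all genes, and anti-ENG 3 the highest anti-ENG tumour in 10, against 30.1%. Against the IgG arm 11 of 14 were below 0 (median -0.15). With 1 tumour left out the median ran from -0.52 without IgG control 2 to 0.15 without IgG control 1, and it was -0.051 without anti-ENG 1. Once IgG control 1 and anti-ENG 1 were both left out, 13 of 14 were above 0 and the median was 0.35. HMGA1, a chromatin protein gene, was the third gene of smallest p, at 0.28. For EGR1 targets 6 of 6 tested were below 0 (median -0.26), with TGFB1 at -0.29, FN1 at -0.45 and NAB2, the corepressor that EGR1 induces, at -0.25. NAB2 is on the feedback list too and is counted in both. Without IgG control 1, 4 of 6 were below 0 (median -0.051). Leaving out IgG control 3 gave a median of -0.45, and leaving out anti-ENG 1 gave -0.17.

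Stress genes were read because ATF3 lies downstream of ATF4 and because immediate early genes respond to stress. DDIT3, the CHOP gene, had 26.6, 32.7 and 19.6 FPKM under IgG and 17.1, 16.9 and 21.8 under anti-ENG (log2 fold change -0.46), while ASNS, an ATF4 target of asparagine synthesis, had 6.57, 11.5 and 12.1 and then 29.6, 12.2 and 14.5 FPKM (0.78). These 2 genes of the integrated stress response thus had opposite signs, and the 7 on the list had 5 above 0 and 2 below (median 0.11). The split turned to 3 above and 4 below with the same sum of FPKM (median -0.0030), and the median was 0.024 without IgG control 2, 0.042 without anti-ENG 3 and 0.23 without anti-ENG 2. CHAC1, a glutathione-degrading enzyme gene, was at 0.16.

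Heat shock genes went both ways. The constitutive chaperone gene HSPA8 had 641, 618 and 658 FPKM under IgG and 1251, 915 and 852 under anti-ENG (log2 fold change 0.63, limma adjusted p = 0.529), HSP90AA1 had 0.40 and the mitochondrial co-chaperonin gene HSPE1 0.29. For 5 of the 10 genes (these 3, BAG3 and HSPD1) the arms did not overlap, all higher under anti-ENG, against 17.3% of genes tested in either direction. The stress-inducible HSPA1A, chosen after its values were seen, was at -0.52, with 38.4, 24.3 and 21.3 FPKM under IgG and 15.2, 14.5 and 29.2 under anti-ENG. Its highest and lowest tumours, IgG control 1 and anti-ENG 2, were those of FOSL2. The heat shock split of 6 above 0 and 4 below became 5 and 5 with the same sum of FPKM, with quantile normalization and after cyclic loess. The list median fell from 0.19 to 0.074, 0.071 and 0.033 with these in turn.

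**Figure D5:**
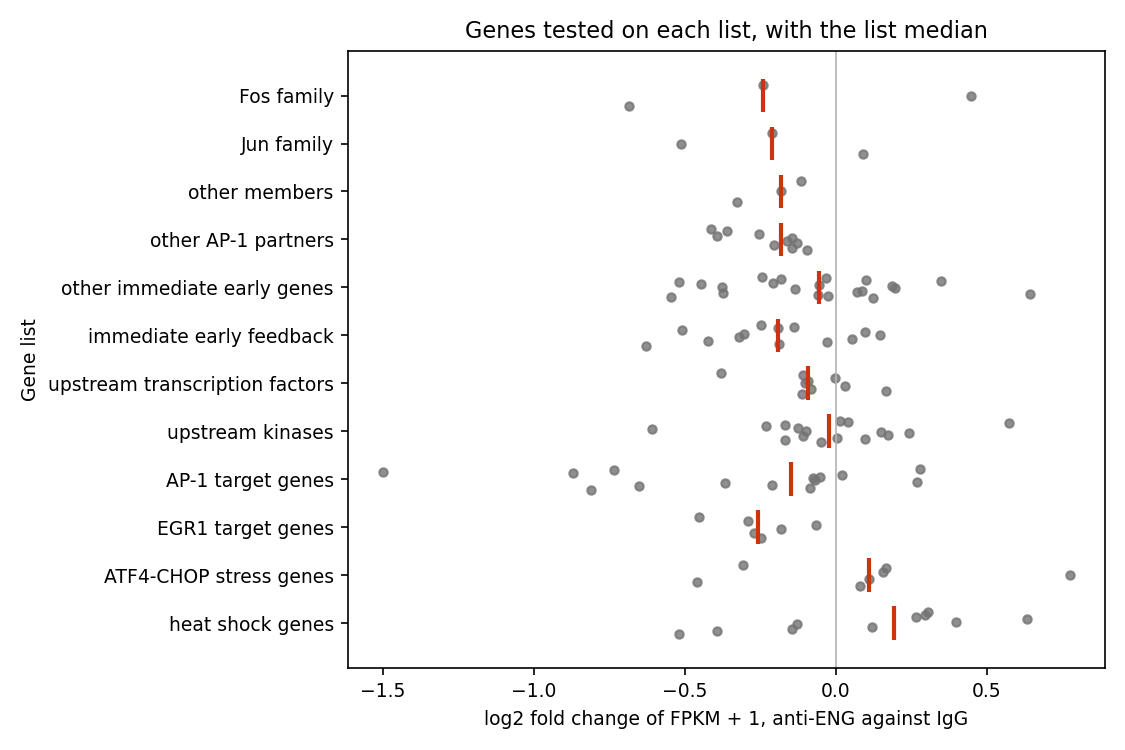
Log2 fold change of FPKM + 1, anti-ENG against IgG, of every gene tested on each list (grey points, 1 per gene), with the list median as a red line. All 10 AP-1 partners lie below 0, and the list medians run from -0.26 for EGR1 target genes to 0.19 for heat shock genes.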

How the data were processed

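RNA of 6 xenograft tumours, 3 per arm, was sequenced after poly(A) selection, per the labels' protocols. The authors deposited FPKM values for 23284 gene symbols, 1 column per tumour. The submitters' processing notes list Cuffnorm, Cufflinks 2.2.1, SAMtools 0.1.1.9, Bowtie 1.0.0, TopHat2 2.0.10 and FastQC 0.10.1, and the human build GRCh37 (hg19). The scaling within Cuffnorm and the handling of mouse reads are not given in the sources used here. Protocol texts in the labels name more than 1 library kit and instrument without saying which served which tumour, so a difference of kit between arms cannot be told apart from treatment.

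Groups came from the sample titles and columns from the descriptions. The arms were tested on log2(FPKM + 1) by limma 3.58.1 (R 4.3.3), with a variance trend, for the 12586 genes whose mean reached 1 FPKM, two-sided, adjusted by Benjamini-Hochberg over all of them. The step was tested on simulated data. Fold changes on this scale understate changes of low genes. Balance measures were tested by exact permutation over tumours. Relative depth came from the ratio of lowest values in genes of at most 0.05 FPKM. The text names all members, up to 3 genes of smallest p per list and the 3 nearest profiles to FOS, FOSL1, JUN and EGR1, passing over unnamed loci, pseudogenes and small RNAs; some genes that this rule picks are not reported here. Members and lists were chosen with earlier results of these data known. Leaving out both IgG control 1 and anti-ENG 1, cyclic loess, and the shares of FOSL2, FOSB and JUND were added after seeing the data. Sequences and coordinates of the human genes are not used here.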

Additional observations from a re-analysis of the deposited data

How the results depend on the processing

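No gene was called at an adjusted p of 0.05 in any of the 18 alternatives (limma, 0 genes each, against 1154 at an unadjusted p under 0.05 in the fit as reported), so no member's call changed. The count of members whose arms did not overlap, 1 of 10, was 2 with the same sum of FPKM and with upper quartile rescaling, where FOS joined FOSB (against 17.7 and 16.2% of all genes tested), 0 with quantile normalization (14.6%), 3 with tumours of one code number averaged (41%) and 4 with the end tumours IgG control 1 and anti-ENG 1 both left out (38%). With 1 tumour left out it ran from 1 to 5, while 23.2 to 33.2% of all genes tested did not overlap; without anti-ENG 3 it was 5 (FOSB, FOSL1, JUNB, JUND and ATF3), without IgG control 1 or anti-ENG 2 it was 3, and without IgG control 3 it was 2. The estimate of JUN turned to -0.029 with the same sum of FPKM, which moved the median of all genes to -0.10, to -0.0054 with quantile normalization, -0.039 with code numbers averaged, -0.034 after cyclic loess and -0.020 without IgG control 3. EGR1 turned to 0.33 with array weights, 0.92 without both end tumours, and with 1 tumour left out it ran from -0.71 to 0.61. FOSL2 ran from -0.50 to 0.073 and IER2 from -0.32 to 0.032 with 1 tumour left out, and JUN from -0.020 to 0.27. Without both end tumours FOSL2 was 0.090, JUNB 0.070, IER2 0.044 and the difference in the JUNB share 0.086 percentage points. The cause of these turns was not tested. The other balance measures kept their sign in every alternative run.

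With the replicate block 0 genes were called, and 842 genes had an unadjusted p under 0.05 against 1154. The FOS log2 fold change was -0.69 in the paired fit too, as a balanced block leaves estimates unchanged. Deviations from the arm means correlated at -0.33, 0.19 and 0.037 for numbers 1, 2 and 3, and from -0.49 to 0.35 between unlike numbers. With 3 tumours per arm, these values cannot show whether samples of a like number share more than that number. The block changed no call. After cyclic loess, which covered tested genes only and so left out FOSB, 0 of 9 members had arms that did not overlap, against 14.7% of genes tested, and balance measures were not recomputed. Depth per value is unknown, which limits FOS and FOSB most.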
